A study of Mus musculus with 8 samples.

Results

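Collagens are the main structural proteins of the extracellular matrix, and each collagen molecule is a helix of 3 chains that are encoded by 1 or more *Col* genes. Fibrillar collagens form the tensile fibers of skin, bone and cartilage, FACITs (fibril-associated collagens with interrupted helices) sit on the surface of such fibers, type IV collagens form the sheet of basement membranes, and the short-chain collagens VIII and X form open networks. In the embryonic face, cranial neural crest cells (cNCCs) give rise to the mesenchyme that lays down much of this matrix before cartilage and bone appear. The genes described here are those whose symbol in the array annotation is *Col*, a number, the letter a and a number. This rule uses no measured value, and it found 44 genes among 22180 with a measured transcript cluster, a set of probes that is read out as 1 signal. They were grouped as 11 fibrillar genes, 6 of type IV basement membrane collagen, 3 network-forming genes, 9 FACITs and 15 others, which are the beaded filament, anchoring fibril, transmembrane and multiplexin collagens and their relatives.

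The values come from O9-1, a single immortalized line of mouse cNCCs. Cells had 24 h to attach, and their medium was then changed to DMEM with 1% FBS. This medium held vehicle (4 cultures) or the amino-terminal SHH peptide, SHH-N, at 0.4 μg/mL (4 cultures), and RNA was collected 48 h later. The labels call the cultures biological replicates, and each was hybridized to its own Affymetrix Mouse Gene 2.0 ST array. The deposited values are log2 signals, so a difference of 1 is a doubling of signal, and signals of different genes cannot be read as amounts of RNA relative to each other. The arrays had medians from 5.70 to 5.76, and signals near or below these may hold little more than background, which the deposited values do not measure. Of 12 measured markers of neural crest and facial mesenchyme, 11 were above this level on every array. *Gli1*, *Ptch1* and *Gas1*, which served as a check of the treatment, had log2 fold changes of 4.71, 4.39 and -1.87. With whole cultures on an array, fewer cells of a kind and less RNA per cell cannot be told apart.

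Of the 44 collagen genes, 8 rose and 6 fell in SHH-treated cNCCs and 30 did not pass the test, a limma fit across all 41345 transcript clusters with calls at an adjusted p (Benjamini-Hochberg) under 0.01. The collagen genes called were 31.8% of those measured, where 9.98% of all genes were called. In the separate directions, 18.2% of the collagen genes rose against 4.79% of all genes, and 13.6% fell against 5.19%. The changes had no common direction, and their median of 0.01 was that of all genes. Calls were more frequent at strong signals. Above a mean log2 signal of 8, a level chosen after the values had been seen, 11 of 14 collagen genes were called, against 3 of the other 30. The share of all genes called above that level was not computed. When only clusters above the median signal were fitted, 7 of 34 collagen genes rose and 6 fell. In that fit 1597 of 20672 clusters rose and 1961 fell. The largest rise was that of *Col10a1* (5.25-fold) and the largest fall that of *Col12a1* (3.74-fold lower), and these were the only collagen genes that changed at least 2-fold. In each of the 14 called genes the treatments did not overlap, with a gap between the nearest cultures of at least 0.258, while the SD within a treatment was at most 0.165. Such a separation was also found for 4 genes that were not called, so 40.9% of the collagen genes had it, against 25.1% of all genes. For a single gene, the exact permutation test of 4 cultures against 4 cannot give a two-sided p under 0.0286, the value of every separated gene.

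**Figure D1:**
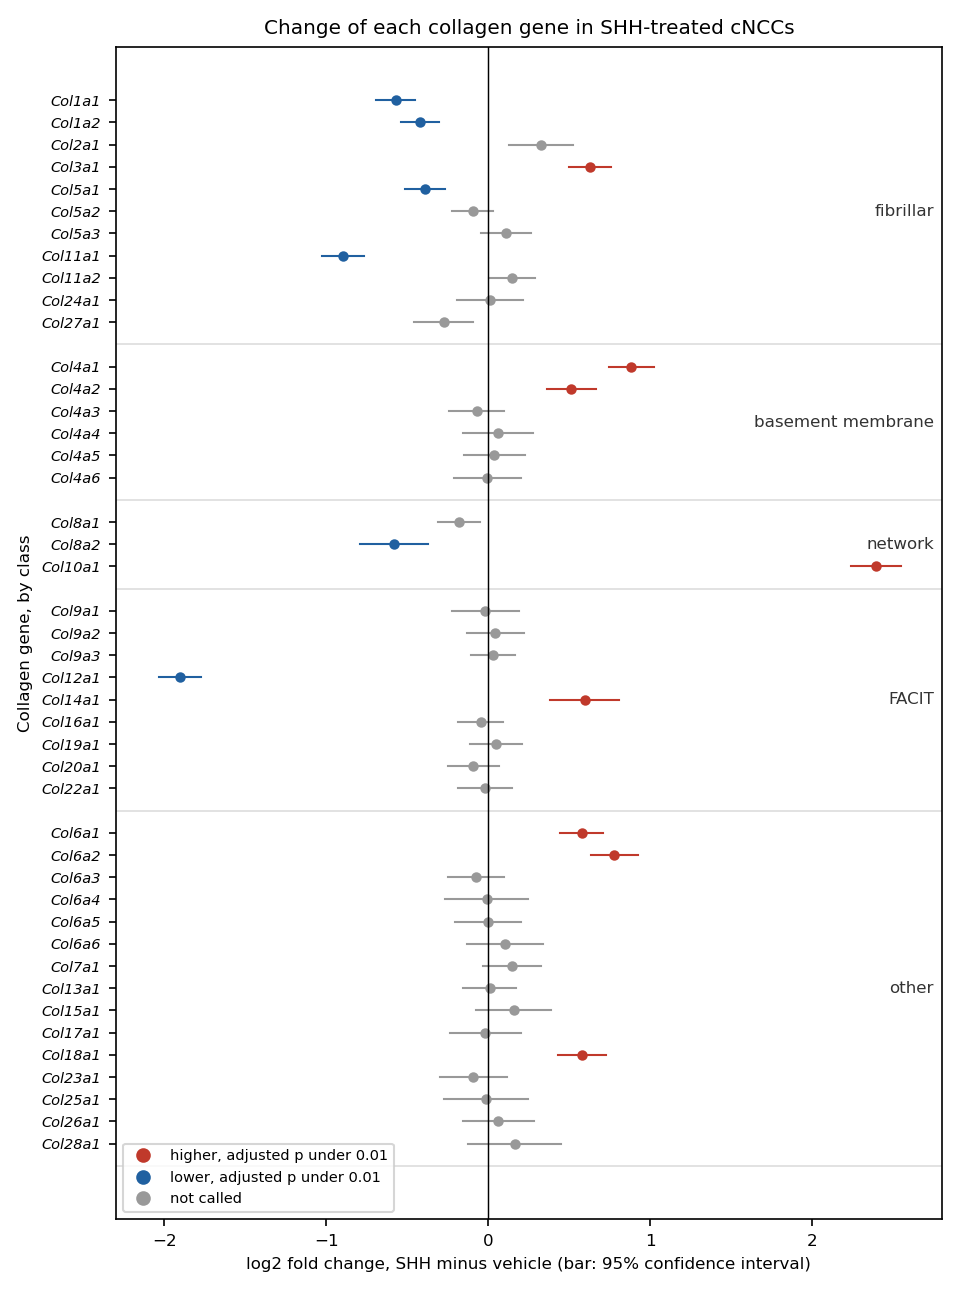
Log2 fold change of each of the 44 collagen genes (SHH minus vehicle, points) with its 95% confidence interval (bars) from limma, with genes grouped by class on the vertical axis. Genes called higher (8) are red, genes called lower (6) blue and the other 30 grey, and *Col10a1* and *Col12a1* lie farthest from 0.

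Start regions are shown for neighbors that both rose, for the largest rises of the network and fibrillar classes and, as an example of a gene that fell, for *Col1a2*. They are windows of 300 bases, 250 before and 50 after an annotated start, from RefSeq on GRCm38.p6. Windows were found for 35 of the 44 genes, 11 of the 14 called genes among them, and the called genes without one are *Col1a1*, *Col12a1* and *Col14a1*. The first pair shows *Col4a1* and *Col4a2*, neighbors read in opposite directions that both rose. Their annotated starts lie 21 bases apart, and capitals mark the 78 bases that both windows hold, each on its own strand.
*Col4a1* (GRCm38.p6, chr8:11312777-11313076, minus strand): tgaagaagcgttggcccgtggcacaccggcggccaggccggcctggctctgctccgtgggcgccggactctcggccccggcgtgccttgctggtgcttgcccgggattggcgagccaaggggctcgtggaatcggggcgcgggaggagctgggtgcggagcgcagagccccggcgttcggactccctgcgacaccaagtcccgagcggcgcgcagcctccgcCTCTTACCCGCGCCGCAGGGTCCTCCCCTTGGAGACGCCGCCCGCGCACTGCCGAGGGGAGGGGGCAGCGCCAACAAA
*Col4a2* (GRCm38.p6, chr8:11312555-11312854, plus strand): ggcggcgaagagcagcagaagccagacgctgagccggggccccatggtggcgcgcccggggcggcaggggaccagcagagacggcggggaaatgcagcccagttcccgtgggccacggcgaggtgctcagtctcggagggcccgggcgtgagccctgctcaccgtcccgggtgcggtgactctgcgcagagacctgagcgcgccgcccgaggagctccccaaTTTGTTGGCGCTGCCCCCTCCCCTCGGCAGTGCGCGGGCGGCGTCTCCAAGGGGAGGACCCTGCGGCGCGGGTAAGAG

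*Col10a1* and *Col3a1*, the highest rises of the network and fibrillar classes, are shown with TATAAA in capitals. In *Col10a1* it begins 32 bases before the start, and in *Col3a1* 117 bases before it. *Col1a2*, a fibrillar gene that fell, is shown with CCAAT in capitals. This window holds it 109 bases before the start and again on the other strand at the start itself.
*Col10a1* (GRCm38.p6, chr10:34389731-34390030, plus strand): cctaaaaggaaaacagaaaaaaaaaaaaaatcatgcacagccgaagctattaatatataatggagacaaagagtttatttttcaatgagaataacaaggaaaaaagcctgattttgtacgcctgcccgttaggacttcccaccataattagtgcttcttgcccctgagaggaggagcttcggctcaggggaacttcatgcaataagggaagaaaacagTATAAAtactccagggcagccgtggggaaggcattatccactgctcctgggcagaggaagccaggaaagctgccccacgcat
*Col3a1* (GRCm38.p6, chr1:45311288-45311587, plus strand): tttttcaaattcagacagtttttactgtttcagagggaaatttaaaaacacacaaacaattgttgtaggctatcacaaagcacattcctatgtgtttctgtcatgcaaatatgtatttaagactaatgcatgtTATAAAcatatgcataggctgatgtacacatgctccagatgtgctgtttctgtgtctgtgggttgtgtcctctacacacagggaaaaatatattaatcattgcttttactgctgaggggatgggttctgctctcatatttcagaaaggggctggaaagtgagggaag
*Col1a2* (GRCm38.p6, chr6:4505368-4505667, plus strand): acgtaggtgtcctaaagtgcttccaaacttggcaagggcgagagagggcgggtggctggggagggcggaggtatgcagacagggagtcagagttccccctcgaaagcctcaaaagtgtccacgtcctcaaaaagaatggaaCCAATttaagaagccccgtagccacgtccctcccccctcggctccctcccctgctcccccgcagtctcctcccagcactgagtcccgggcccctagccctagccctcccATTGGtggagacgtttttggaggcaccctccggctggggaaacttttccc

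Each motif was searched on both strands of 38 collagen windows and of 32851 windows of the same length from all genes. TATAAA was in 5 collagen windows (13.2%, against 13.6% of all windows). Among windows of genes that rose it was in 2 of 9, those of *Col10a1* and *Col3a1*. It was in 0 of 4 windows of genes that fell and 3 of 25 of genes not called. CCAAT was in 34.2% of the collagen windows and 37.4% of all windows. It was in 3 of 9 windows of genes that rose, 2 of 4 of genes that fell and 8 of 25 of genes not called. The windows of *Col4a1* and *Col4a2* shown above hold it too, where it is not marked. The GC box GGGCGG was in 60.5% and 35.7%, and the median share of G and C was 59.8% and 52.7%. The GC box was found in genes that rose, such as *Col4a1*, *Col4a2* and *Col18a1*, and in genes that fell, such as *Col11a1*, *Col1a2*, *Col5a1* and *Col8a2*. It was in 5 of 9 windows of genes that rose, 4 of 4 of genes that fell and 14 of 25 of genes not called. TGGGTGGTC, the site that Gli factors are known to bind, was in 0 of 38 collagen windows and in 0.253% of all windows. A match is only a description of the letters, and more distant sequence was not searched.

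Fibrillar collagens changed in both directions, with type I lower and type III higher. Of the 11 fibrillar genes, *Col3a1* rose, *Col1a1*, *Col1a2*, *Col5a1* and *Col11a1* fell, and 6 did not pass the test. *Col1a1*, the major chain of the fibers of bone and skin, had log2 signals of 12.76, 12.77, 12.76 and 12.77 in vehicle replicates 1 to 4 and 12.11, 12.22, 12.25 and 12.19 in SHH replicates 1 to 4. The vehicle arrays were nearly identical and every SHH array was lower, by a log2 fold change of -0.57 ± 0.05 (SE, limma adjusted p = 0.000188), or 1.49-fold lower. *Col1a2* encodes the partner chain of the same molecule, and its signals were 11.89, 11.94, 11.89 and 11.89 in vehicle replicates 1 to 4 and 11.46, 11.52, 11.52 and 11.43 in SHH replicates 1 to 4. The treatments did not overlap, and the log2 fold change was -0.42 ± 0.05 (SE, limma adjusted p = 0.000855). A dimmer cluster of *Col1a2* had the same direction with a log2 fold change of -0.22, which did not pass (limma adjusted p = 0.0560).

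*Col3a1*, whose product forms fibers together with type I collagen in skin and vessels, went the other way. Its signals were 9.42, 9.29, 9.45 and 9.37 in vehicle replicates 1 to 4 and 9.99, 10.03, 10.04 and 9.98 in SHH replicates 1 to 4, so that the highest vehicle array lay below the lowest SHH array. The log2 fold change was 0.63 ± 0.06 (SE, limma adjusted p = 0.000169), or 1.54-fold. The log2 signal of *Col3a1* minus that of *Col1a1* was therefore between -3.48 and -3.30 on vehicle arrays and between -2.22 and -2.12 on SHH arrays, a shift of 2.30-fold that was looked at after the values had been seen and not tested. *Col5a2*, the chromosomal neighbor of *Col3a1*, had signals of 8.27, 8.28, 8.34 and 8.24 in vehicle replicates 1 to 4 and 8.19, 8.11, 8.24 and 8.21 in SHH replicates 1 to 4. The highest SHH array lay just below the lowest vehicle array, and the log2 fold change of -0.10 (95% confidence interval -0.22 to 0.03) did not pass (limma adjusted p = 0.343).

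Types V and XI are minor fibrillar collagens that lie inside fibers and are known to limit their width. *Col5a1* fell, with signals of 8.97, 9.03, 9.01 and 8.97 in vehicle replicates 1 to 4 and 8.53, 8.64, 8.58 and 8.66 in SHH replicates 1 to 4. Its log2 fold change was -0.39 ± 0.05 (SE, limma adjusted p = 0.00175). A dimmer cluster of the gene was at 0.02 (limma adjusted p = 0.909), and with the mean of both clusters the change was -0.19 and did not pass (adjusted p = 0.0286). *Col11a1*, which is used in cartilage and in the early matrix of tendon and bone, had signals of 9.64, 9.73, 9.63 and 9.65 in vehicle replicates 1 to 4 and 8.69, 8.84, 8.74 and 8.79 in SHH replicates 1 to 4. Every SHH array was lower by more than the whole spread of either treatment, and the log2 fold change was -0.90 ± 0.06 (SE, limma adjusted p = 2.14e-05), or 1.86-fold lower. *Col11a2*, its partner in cartilage, had signals of 6.11, 6.08, 6.01 and 6.08 in vehicle replicates 1 to 4 and 6.18, 6.33, 6.12 and 6.23 in SHH replicates 1 to 4. These were little above the median of an array and slightly higher on each SHH array, with a log2 fold change of 0.15 (95% confidence interval 0.00 to 0.29) that did not pass (limma adjusted p = 0.197).

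*Col2a1*, the main fibrillar collagen of cartilage, lay closest to the threshold among the collagen genes that did not pass. Its signals were 6.69, 6.75, 6.58 and 6.85 in vehicle replicates 1 to 4 and 6.85, 7.09, 7.11 and 7.13 in SHH replicates 1 to 4. SHH replicate 1 was level with the highest vehicle array to 2 decimals, just above it before rounding, and the log2 fold change was 0.33 ± 0.09 (SE, limma adjusted p = 0.0454). *Col27a1*, another cartilage collagen, had signals of 7.90, 8.06, 7.76 and 7.93 in vehicle replicates 1 to 4 and 7.58, 7.77, 7.59 and 7.61 in SHH replicates 1 to 4. SHH replicate 2 was level with the lowest vehicle array, and the log2 fold change of -0.28 (limma adjusted p = 0.0656) did not pass. *Col5a3* and *Col24a1* had log2 fold changes of 0.11 and 0.01.

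Among the 6 type IV genes, the pair that every basement membrane uses rose and the other 4 did not pass the test. *Col4a1* had signals of 8.28, 8.41, 8.40 and 8.43 in vehicle replicates 1 to 4 and 9.20, 9.33, 9.29 and 9.23 in SHH replicates 1 to 4. All SHH arrays were above all vehicle arrays, and the log2 fold change was 0.88 ± 0.06 (SE, limma adjusted p = 3.17e-05), or 1.84-fold. *Col4a2*, which joins with it in 1 molecule and shares the start region shown above, had signals of 8.59, 8.74, 8.61 and 8.73 in vehicle replicates 1 to 4 and 9.11, 9.28, 9.20 and 9.13 in SHH replicates 1 to 4. It also rose without overlap, by 0.51 ± 0.07 (SE, limma adjusted p = 0.00125), or 1.43-fold. *Col4a3*, *Col4a4*, *Col4a5* and *Col4a6*, the chains of specialized membranes such as that of the kidney glomerulus, had log2 fold changes between -0.07 and 0.06 with confidence intervals inside -0.24 to 0.27. The means of *Col4a3* and *Col4a4* lay below the highest array median in both treatments, so a change of these genes may not have been detectable.

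Laminins, nidogens and perlecan, the proteins that type IV collagen meets in the basement membrane, mostly did not rise with it. Of 14 such genes measured, 1 rose, 4 fell and 9 did not pass (median log2 fold change -0.09). The genes called were 35.7% of this list, where 9.98% of all genes were called. *Lama2*, the laminin chain of muscle and nerve, went from 5.60 ± 0.09 to 7.56 ± 0.09 (SD, 4 cultures per treatment), a log2 fold change of 1.95. Its vehicle mean lay below the array medians, so the change is a lower bound if that signal is background. *Nid2*, which links laminin to type IV collagen, went from 8.43 ± 0.05 to 7.55 ± 0.09 (SD, 4 cultures per treatment), a log2 fold change of -0.89.

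The network-forming class held the largest rise of all collagen genes and 1 fall. *Col10a1*, known as the collagen of hypertrophic cartilage, had signals of 7.51, 7.27, 7.35 and 7.40 in vehicle replicates 1 to 4 and 9.81, 9.73, 9.74 and 9.81 in SHH replicates 1 to 4. The nearest arrays of the treatments lay 2.21 apart, and the log2 fold change was 2.39 ± 0.07 (SE, limma adjusted p = 3.50e-07), or 5.25-fold. Type VIII collagen, which is related to type X in structure, is found in the matrix under endothelia and in the cornea. *Col8a1* had signals of 11.39, 11.33, 11.34 and 11.36 in vehicle replicates 1 to 4 and 11.12, 11.14, 11.16 and 11.28 in SHH replicates 1 to 4. It was lower on each SHH array, but the log2 fold change of -0.18 (95% confidence interval -0.31 to -0.05) did not pass (limma adjusted p = 0.0850).

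*Col8a2*, the other type VIII chain, had signals of 7.98, 7.91, 7.84 and 8.03 in vehicle replicates 1 to 4 and 7.48, 7.40, 7.11 and 7.43 in SHH replicates 1 to 4, with SHH replicate 3 the lowest of all arrays. The log2 fold change was -0.58 ± 0.09 (SE, limma adjusted p = 0.00357), with a level close to 8 on vehicle arrays. The call was lost when vehicle replicate 1, 2 or 4 or SHH replicate 2 was left out, at limma adjusted p values of 0.0114 to 0.0144 and log2 fold changes between -0.60 and -0.55. An analysis of variance per cluster without moderation gave 0.0107.

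Markers of skeletal cells were read beside *Col10a1*. The 6 chondrocyte markers were listed without any collagen, and 0 of them were above the highest array median on all arrays. Their mean log2 signal was 5.19 to 5.34 on vehicle arrays and 5.29 to 5.50 on SHH arrays. None was called by limma or by analysis of variance, and 2 were higher at an unadjusted p under 0.05. Of 5 osteoblast markers 3 rose (2 by analysis of variance), where limma called 4.79% of all genes higher. The mean of all 5 markers was 5.05 to 5.29 on vehicle arrays and 6.31 to 6.48 on SHH arrays. They include *Alpl*, the phosphatase of mineralizing matrix (2.39), and *Ibsp*, bone sialoprotein (2.54), whose vehicle signals averaged 6.31 and 4.95, and *Dmp1* of osteocytes (0.59, limma adjusted p = 0.00857), whose means lay at or below the highest array median in both treatments. The part of a change toward such cells in the rise of *Col10a1* was not tested.

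FACITs included the largest fall and 1 rise, and the other 7 of 9 did not pass the test. *Col12a1*, which coats type I fibers in tendon, ligament and periosteum, had signals of 13.07, 13.10, 13.02 and 13.08 in vehicle replicates 1 to 4 and 11.07, 11.19, 11.22 and 11.18 in SHH replicates 1 to 4. Each treatment was tight and the treatments lay far apart, with a log2 fold change of -1.90 ± 0.06 (SE, limma adjusted p = 4.07e-07), or 3.74-fold lower. *Col14a1*, a close relative that also binds fibers, had signals of 5.05, 4.97, 4.85 and 5.10 in vehicle replicates 1 to 4 and 5.69, 5.63, 5.36 and 5.67 in SHH replicates 1 to 4. Every SHH array was above every vehicle array, with SHH replicate 3 nearest to them. The log2 fold change was 0.60 ± 0.09 (SE, limma adjusted p = 0.00364), or 1.51-fold.

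Both means of *Col14a1* lay below the highest array median. Leaving out any array other than vehicle replicate 4 or SHH replicate 3 took its p above the threshold, to limma adjusted p values between 0.0109 and 0.0148, and the analysis of variance gave 0.0112. The type IX chains of cartilage, *Col9a1*, *Col9a2* and *Col9a3*, had log2 fold changes of -0.02, 0.04 and 0.03. *Col16a1*, which has the highest signal of the class after *Col12a1*, had signals of 7.53, 7.54, 7.56 and 7.68 in vehicle replicates 1 to 4 and 7.50, 7.49, 7.61 and 7.53 in SHH replicates 1 to 4, with a log2 fold change of -0.05. With *Col19a1*, *Col20a1* and *Col22a1*, the 7 FACITs that did not pass spanned -0.09 to 0.05, and their confidence intervals lay inside -0.25 to 0.22.

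Of the 15 other collagens, *Col6a1*, *Col6a2* and *Col18a1* rose and 12 did not pass the test. Type VI collagen forms beaded filaments around cells, from *Col6a1*, *Col6a2* and 1 further chain. *Col6a1* had signals of 10.57, 10.55, 10.70 and 10.57 in vehicle replicates 1 to 4 and 11.11, 11.20, 11.21 and 11.17 in SHH replicates 1 to 4. The treatments did not overlap, and the log2 fold change was 0.58 ± 0.06 (SE, limma adjusted p = 0.000287), or 1.49-fold. The precision was higher for strong signals, with a median standard error of 0.057 for the 14 collagen genes above 8 in the mean of all arrays, a level chosen after the values had been seen, and 0.0873 for the other 30. A dimmer cluster of *Col6a1* also rose, by 0.42 ± 0.07 (SE, limma adjusted p = 0.00444), while a cluster that lists several symbols with *Col6a1* was not used. *Col6a2* had signals of 9.19, 9.33, 9.26 and 9.30 in vehicle replicates 1 to 4 and 9.97, 10.11, 10.13 and 10.00 in SHH replicates 1 to 4. It was higher on every SHH array, with a log2 fold change of 0.78 ± 0.06 (SE, limma adjusted p = 8.47e-05), or 1.71-fold.

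*Col6a3*, the usual further chain of type VI collagen, did not move with its partners. Its signals were 9.08, 9.22, 9.07 and 9.15 in vehicle replicates 1 to 4 and 8.96, 9.19, 9.12 and 8.95 in SHH replicates 1 to 4. They overlapped between the treatments, and the log2 fold change was -0.08 (95% confidence interval -0.25 to 0.10, limma adjusted p = 0.617). The alternatives to it, *Col6a4*, *Col6a5* and *Col6a6*, had log2 fold changes of -0.01, 0.00 and 0.10, at signals near or below the array median.

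*Col18a1*, a multiplexin of basement membranes whose end fragment is endostatin, had signals of 5.85, 5.92, 5.79 and 5.77 in vehicle replicates 1 to 4 and 6.39, 6.36, 6.36 and 6.52 in SHH replicates 1 to 4. All SHH arrays were higher, and the log2 fold change was 0.58 ± 0.06 (SE, limma adjusted p = 0.000492), from a vehicle level close to the array median. Its relative *Col15a1* had signals between 5.15 and 5.35 on vehicle arrays and between 5.14 and 5.56 on SHH arrays. These overlapped, with a log2 fold change of 0.16 (limma adjusted p = 0.416). *Col7a1*, the anchoring fibril collagen of skin, was at 0.15 (limma adjusted p = 0.310). The transmembrane collagens *Col13a1*, *Col17a1*, *Col23a1* and *Col25a1* lay between -0.09 and 0.01, and *Col26a1* and *Col28a1* were at 0.06 and 0.16.

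**Figure D2:**
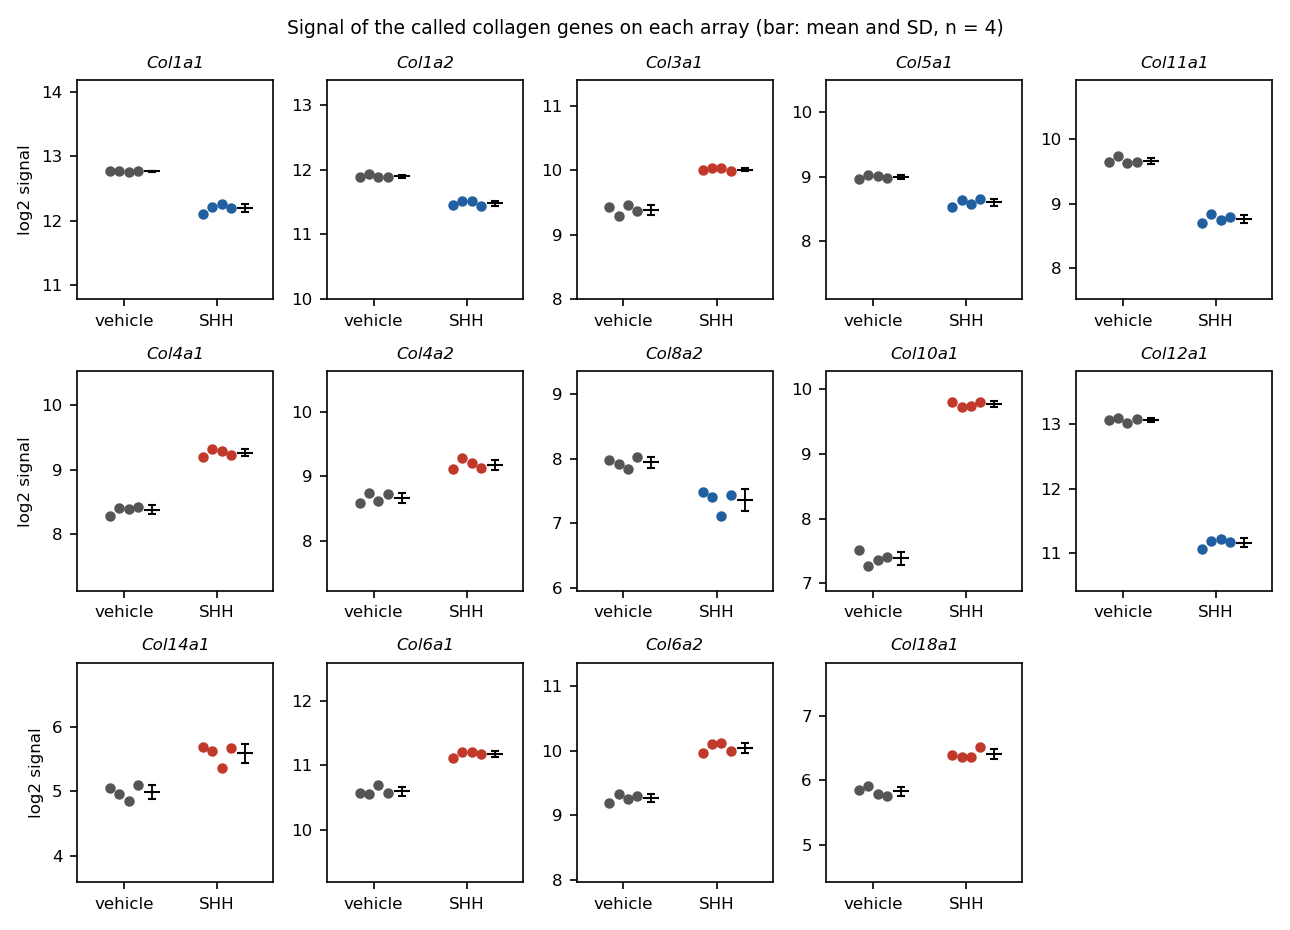
Log2 signal on each of the 8 arrays for the 14 called collagen genes, with vehicle arrays in grey and SHH arrays in red (higher) or blue (lower), and the mean and SD of each treatment (n = 4) at the side. Every panel spans the same range of log2 signal, and the treatments do not overlap in any of the 14 genes.

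Chains that join in 1 molecule did not always change to the same extent. For 10 pairs of such chains, the log2 signal of 1 chain minus that of the other was taken within each array and compared between the treatments. In 7 pairs these differences did not overlap between the treatments (exact permutation test, two-sided p = 0.0286 each, 0.0408 after Benjamini-Hochberg adjustment over the 10 pairs, n = 4 arrays per treatment). This is the smallest p that 4 arrays against 4 allow, and it leaves the size of the difference as the main measure. Each of the 7 pairs holds a called chain and the other 3 hold none, so the separations partly restate the calls of single genes. Of all single genes, 25.1% separated, and the share among other gene pairs was not computed.

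The most unequal pair was *Col11a1* and *Col11a2*. *Col11a2* was dim, with means of 6.07 (vehicle) and 6.22 (SHH) little above the array medians, so its own change may be understated. The difference of their signals ran from 3.53 to 3.65 on vehicle arrays and from 2.51 to 2.62 on SHH arrays, so that *Col11a1* changed by -1.04 ± 0.04 (SE) relative to *Col11a2*. For *Col6a2* and *Col6a3* it ran from 0.11 to 0.18 on vehicle arrays and from 0.91 to 1.05 on SHH arrays, a relative change of 0.85 ± 0.03 (SE). *Col6a1* and *Col6a2*, which both rose, differed by only -0.20 ± 0.06 (SE).

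*Col4a1* rose by 0.37 ± 0.03 (SE) more than *Col4a2*, and the difference ran from -0.33 to -0.21 on vehicle arrays and from 0.04 to 0.10 on SHH arrays. *Col1a1* fell somewhat more than *Col1a2*, with a relative change of -0.15 ± 0.03 (SE). The relative change of *Col5a1* against *Col5a2* was -0.30 ± 0.05 (SE), and that of *Col8a1* against *Col8a2* was 0.40 ± 0.09 (SE). The value of *Col5a1* depended on the cluster chosen for it. With its dimmer cluster the relative change was 0.11 and with the mean of both clusters it was -0.09, and the treatments overlapped in both (exact permutation p = 0.114, adjusted p = 0.163). With the dimmer cluster of *Col1a2* the relative change of *Col1a1* was -0.35, and with that of *Col6a1* its relative change was -0.36, and both kept their direction without overlap. For the pairs *Col4a3* and *Col4a4* (-0.13, exact permutation p = 0.343), *Col4a5* and *Col4a6* (0.04, exact permutation p = 0.714) and *Col9a1* and *Col9a2* (-0.06, exact permutation p = 0.514) the arrays overlapped. A ratio of this kind shows unequal change of signal and not the makeup of the protein.

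**Figure D3:**
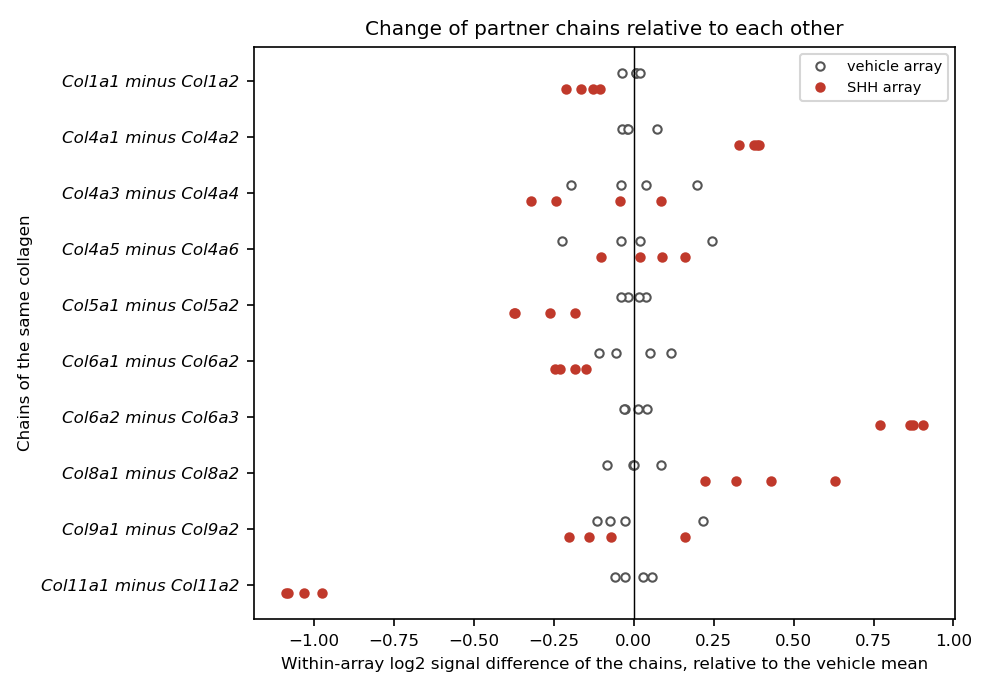
Within-array difference of the log2 signals of 2 chains of the same collagen, set to 0 at the vehicle mean, for 10 pairs. Open points are the 4 vehicle arrays and red points the 4 SHH arrays, which lie apart in 7 pairs and farthest apart for *Col11a1* minus *Col11a2* and *Col6a2* minus *Col6a3*.

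Position on the chromosome did not go with a shared change in every case. Collagen genes are next to each other, with no other protein-coding gene between them, in 8 pairs of the RefSeq annotation. Both genes rose in the pairs *Col4a1* with *Col4a2* and *Col6a1* with *Col6a2*. In the pair *Col3a1* with *Col5a2* only *Col3a1* passed the test, and the signal of *Col3a1* minus that of *Col5a2* shifted by 0.72, a value looked at after the data had been seen. In the other 5 pairs neither gene passed the test, and 4 of the 5 lie in the type IV and type VI families: *Col4a3* with *Col4a4*, *Col4a5* with *Col4a6*, and *Col6a5* with *Col6a4* and with *Col6a6*. The fifth pair is *Col9a1* with *Col19a1*. Both means of *Col4a3*, *Col4a4*, *Col6a4*, *Col6a5*, *Col9a1* and *Col19a1* lay at or below the highest array median. A change of these genes may not have been detectable.

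Genes that act on collagens after translation were read in 2 lists, beside the 9.98% of all genes that were called. Of 20 enzymes and chaperones that modify, fold or crosslink collagen, 3 rose, 6 fell and 11 did not pass (median log2 fold change -0.27). *Lox*, the oxidase that starts crosslinks between collagen chains, went from 12.11 ± 0.01 to 9.62 ± 0.16 (SD, 4 cultures per treatment), which is a change of -2.49 ± 0.08 (SE, limma adjusted p = 6.65e-07) in log2 signal. *P4ha3*, a subunit of the prolyl hydroxylase that stabilizes the helix, went from 9.43 ± 0.04 to 8.06 ± 0.10 (SD, 4 cultures per treatment), a log2 fold change of -1.37. Of 9 genes that cut procollagen or aid its cutting, 1 rose, 1 fell and 7 did not pass (median 0.06). *Adamts14*, which removes the amino-terminal propeptide, rose by 0.92, and *Pcolce*, an enhancer of carboxy-terminal cleavage, had a log2 fold change of -0.51.

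Collagen receptors and factors that control collagen genes were read in the same way. Of 9 receptors and uptake genes, 3 fell and 6 did not pass (median -0.31). *Itga1*, the integrin subunit that binds type IV and type I collagen, went from 7.58 ± 0.12 to 6.06 ± 0.13 (SD, 4 cultures per treatment), which is a change of -1.53 ± 0.09 (SE, limma adjusted p = 1.23e-05) in log2 signal. *Mrc2*, an endocytic receptor for collagen, had one of -0.57. Of 9 transcription factors, 2 rose, 3 fell and 4 did not pass (median 0.03). *Creb3l1*, which is known to drive *Col1a1* in osteoblasts, went from 8.55 ± 0.15 to 6.59 ± 0.03 (SD, 4 cultures per treatment), a log2 fold change of -1.96. *Sp7*, an osteoblast factor, went from 5.44 ± 0.36 to 7.08 ± 0.11 (SD, 4 cultures per treatment), a log2 fold change of 1.64 that is likewise a lower bound if its vehicle signal, below the array medians, is background. Whether these factors bear on the collagen genes was not tested.

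**Figure D4:**
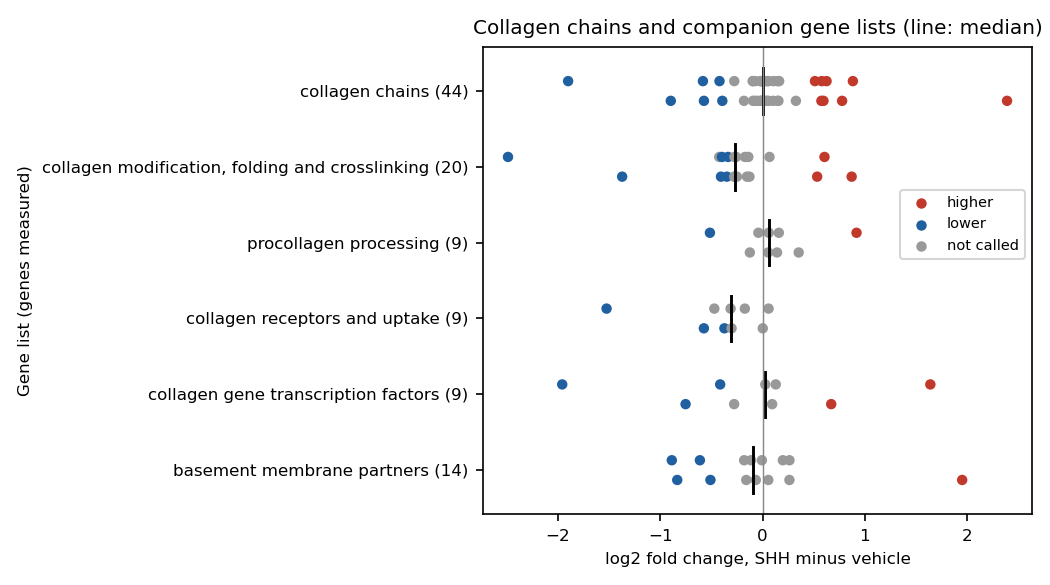
Log2 fold change (SHH minus vehicle) of every measured gene of the collagen chains and 5 companion lists, with genes that were called higher in red, called lower in blue and not called in grey, and a line at the median of each list. The collagen chains spread to both sides of a median of 0.01, while the median is -0.27 for modification, folding and crosslinking genes and -0.31 for receptors.

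Markers of other cell types were read for what the cultures could hold. Smooth muscle markers fell in 4 of 6 genes, where 5.19% of all genes fell. Their mean log2 signal was 9.76 to 9.83 on vehicle arrays and 8.94 to 9.08 on SHH arrays. Of the collagen genes, 6 fell and 8 rose. In the neural crest and facial mesenchyme list, 4 genes rose and 5 fell of 12, where 4.79% of all genes rose. Markers above the highest array median on all arrays were 0 of 6 for endothelial cells, 1 of 5 for leukocytes, 1 of 4 for glia, 1 of 5 for melanocytes, 2 of 5 for neurons and 2 of 5 for epithelial cells. In these 6 lists 4 genes were called by limma, where 9.98% of all genes were called. They were 1 of 6 endothelial, 1 of 5 epithelial, 1 of 4 glial and 1 of 5 melanocyte markers. For leukocytes and for neurons 0 of 5 were called. The log2 fold changes were 1.77 for *Cdh1*, the adhesion protein of epithelia, 1.20 for *S100b* of glia, 0.67 for *Cdh5* of endothelium and -0.52 for *Mitf* of melanocytes. The part of these markers' cell types in the collagen changes was not tested.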

How the data were processed

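Each of 4 vehicle-treated and 4 SHH-treated O9-1 cultures had its own Affymetrix Mouse Gene 2.0 ST array. Per the submitters' processing notes and the methods, GCOS gave the intensities, Expression Console the signals and Transcriptome Analysis Console 2.0 the tests. The authors deposited a log2 signal for each transcript cluster, and these were used as deposited. Array medians were nearly equal. How signals were summarized and normalized, and the genome build, are not given in the sources used here. Precision is limited by the number of arrays.

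All 41345 clusters were fitted with limma 3.58.1 in R 4.3.3 (lmFit and eBayes, SHH minus vehicle, no filter, no block), with Benjamini-Hochberg adjustment over all clusters and calls at an adjusted p under 0.01, the threshold of the methods. Clusters with several symbols were left unnamed, and the cluster of highest mean stands for a gene. Partner chains were compared by exact permutation with scipy 1.17.1. Named genes are the called collagen genes, the chains of the pairs, the 2 chains of highest signal in each class and the 2 called genes of largest change in each companion list. Others were added after their values had been seen, such as *Col2a1*, *Alpl* and *Ibsp*. The members and lists were chosen with earlier results of these data known. The code was tested on simulated data. Alternatives were the replicate number as a block, an analysis of variance per cluster without moderation (the methods name the console and not its test), other limma settings, scalings, filters and thresholds, other choices of cluster (for the pairs, added after seeing the data), and each array left out.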

Additional observations from a re-analysis of the deposited data

Results flagged for a closer look

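In 9 of 88 treatment groups (44 collagen genes in 2 treatments), 1 of the 4 cultures lay apart from the other 3 by more than the 95% critical value of Dixon's ratio for 4 values, where chance flags about 1 in 20, or 4.4 of 88. Of these, 3 are in called genes. *Col1a2* was at 11.94 in vehicle replicate 2, where the other vehicle cultures were at 11.89, a gap far smaller than its change. *Col6a1* was at 10.70 in vehicle replicate 3, against 10.55 to 10.57 in the others, and *Col18a1* was at 6.52 in SHH replicate 4, against 6.36 to 6.39. These 3 genes were called without each array in turn. Among genes that were not called, *Col2a1* was at 6.85 in SHH replicate 1, against 7.09 to 7.13, and *Col27a1* at 7.77 in SHH replicate 2, against 7.58 to 7.61. *Col4a6* was at 5.89 in SHH replicate 3 and *Col25a1* at 5.70 in SHH replicate 2. *Col22a1* was at 5.92 in vehicle replicate 3 and *Col26a1* at 6.69 in vehicle replicate 1. These cultures were spread over 7 of the 8 arrays.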

How the results depend on the processing

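The 14 calls were recomputed under 20 alternatives, and 254 of the 279 combinations of gene and alternative that could be fitted were still called. None changed direction, but alternatives that altered only the test, filter or threshold keep the log2 fold change, so its sign could not change there. The dimmer cluster of *Col5a1*, at 0.02, was not used on its own among the 20. *Col3a1*, *Col11a1*, *Col4a1*, *Col10a1*, *Col12a1* and *Col6a2* were called in every alternative, and all but *Col8a2* and *Col14a1* were called without each array in turn. Leaving out 1 array gave 7 to 8 collagen genes higher and 5 to 6 lower. With a fold change of at least 1.5 also required, 5 rose and 2 fell, and over all clusters 765 and 809. The clusters that rose numbered 1226 at the 0.01 threshold and 2073 at 0.05, and those that fell 1453 and 2621. Same-numbered cultures did not deviate together over all clusters (correlations of -0.02, -0.02, -0.01 and 0.02). The labels do not say whether cultures of the same number were handled together. With the replicate number as a block, 6 collagen genes were higher and 3 lower, and *Col1a2*, *Col5a1*, *Col4a2*, *Col8a2* and *Col18a1* did not pass, with 624 clusters higher and 616 lower overall. The companion counts that moved by over 1.5 times were these. At an adjusted p under 0.05, 11 modification and crosslinking genes and 5 receptors were lower, and 2 processing genes and 2 basement membrane partners were higher. With the block, 2 modification genes and 0 processing genes were lower, and 1 transcription factor was higher. The 7 unequal pairs were also found with quantile normalization. With the dimmer cluster of *Col1a2*, *Col5a1* and *Col6a1*, an alternative chosen after seeing the data, 6 pairs passed and *Col5a1* against *Col5a2* turned from -0.30 to 0.11. With the mean of both clusters 6 passed, without that pair. With 3 arrays against 4 the exact test cannot reach 0.05, so that count was not recomputed without an array. Of the 44 genes, 10 had both means at or below 5.76, where dim signal limits what can be detected.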
